A study of Mus musculus with 2 samples.

Results

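Erythroid miRNAs are short RNAs made in large amounts by developing red cells, and in a brain sample they can serve as markers of residual blood. The set described here consists of 5 miRNA genes: Mir144, Mir451a and its opposite-strand partner Mir451b, Mir486 and its opposite-strand partner Mir3107. They were chosen by gene symbol from the 2202 miRNA genes of the deposited tables, and all 5 were found. Of the 5, 4 reached 2 CPM (a gene's count scaled to a library total of 1000000 counts at miRNA genes) in both libraries, as did 415 of the 2202 genes.

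Left cerebral cortices of 2 female mice of the strain B6CASTF1/J, aged 2 months, gave 1 library each. The strain name denotes first-generation hybrids of a C57BL laboratory line and the wild-derived CAST line. Neither animal received a treatment that the labels name, so the animals form a single group without a control. They are labelled as females 03 and 04 and as biological replicates 1 and 2, but carry the same donor identifier. Replicate 1 is animal 1 in the text and replicate 2 is animal 2. The assay was microRNA-seq of total RNA, in which RNA below 30 nucleotides is sequenced. The sources used here do not say whether blood was cleared from the brains by perfusion.

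A miRNA is cut from a folded precursor, the hairpin, and its mature strand is loaded into an Argonaute protein that represses messenger RNAs matching its seed, bases 2 to 8. The Mir144 and Mir451a hairpins are released from a common transcript that the erythroid factor GATA1 activates. Mature miR-451a is unusual in that the Argonaute protein AGO2, not Dicer, cuts its precursor. It dampens signalling through the adaptor 14-3-3 zeta and protects red cells from oxidative stress, and miR-144 acts on the antioxidant regulator Nrf2. Mir486 lies in an intron of Ank1, which encodes the ankyrin of the red cell membrane skeleton, and is made in erythroid cells and in muscle. Mature red cells have no nucleus but keep much of their miRNA.

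The RefSeq miRNA table on GRCm38.p6 held 3 of the 5 genes, Mir144, Mir451a and Mir451b. Their hairpins are shown because they show which strand and which arm each mature miRNA comes from. Mature miRNAs are in capitals, 5′ to 3′.
Mir144 hairpin, chr11:78073005-78073070, plus strand: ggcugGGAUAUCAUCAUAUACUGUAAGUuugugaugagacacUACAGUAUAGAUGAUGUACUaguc
Mir451a hairpin, chr11:78073170-78073241, plus strand: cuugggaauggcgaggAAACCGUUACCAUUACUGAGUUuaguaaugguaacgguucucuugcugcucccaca
Mir451b hairpin, chr11:78073170-78073241, minus strand: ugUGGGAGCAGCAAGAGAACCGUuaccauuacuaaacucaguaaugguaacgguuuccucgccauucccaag

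The Mir451a and Mir451b hairpins have the same 72 positions, and each is the reverse complement of the other. Their mature miRNAs come from different stretches of it, which lie 11 bases apart and do not overlap. The longest stretch of the 22-base miR-451a found in the Mir451b hairpin was 16 bases, so the full mature sequence is in the Mir451a hairpin alone of these 2. In the predicted fold of lowest energy (-43.3 kcal/mol), miR-451a covered hairpin bases 17 to 38, including all 4 bases of the terminal loop at 35 to 38. In the Mir144 fold (-28.6 kcal/mol) neither miR-144-5p nor miR-144-3p reached into the loop, and neither did miR-451b in its own fold (-37.5 kcal/mol).

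The mature sequences follow with their seeds in capitals, together with miR-101a-3p, the other mature entry of that table that has bases 2 to 7 of miR-144-3p.
miR-451a: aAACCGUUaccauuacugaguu
miR-451b: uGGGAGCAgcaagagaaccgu
miR-144-5p: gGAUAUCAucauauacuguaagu
miR-144-3p: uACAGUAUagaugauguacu
miR-101a-3p: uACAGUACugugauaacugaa

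None of the 4 member seeds was shared in full by another mature entry. The deposited counts are per hairpin gene and do not separate miR-144-5p from miR-144-3p. Mir101a was counted 740 times (168 CPM) in animal 1 and 151 times (66.2 CPM) in animal 2. For each count of Mir144 there were 4.11 counts of Mir101a in animal 1, with an exact Clopper-Pearson 95% interval of 3.49 to 4.87. In animal 2 there were 7.19 (4.54 to 12). Its more abundant paralog Mir101b, whose mature strands do not have those bases at positions 2 to 7, went the other way, with 321 CPM in the first animal against 529 CPM. The log2 ratio of animal 1 over animal 2 was 1.34 for Mir101a (1.08 to 1.60) and -0.72 for Mir101b (-0.83 to -0.61).

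On mm10 with the GENCODE M21 annotation, Mir144 (ENSMUSG00000065401.1) lies on the plus strand of chromosome 11 at 78073005 to 78073070. Mir451a (ENSMUSG00000070065.1) follows on the same strand with 99 bases in between, at 78073170 to 78073241. Mir451b (ENSMUSG00000104813.1) has the coordinates of Mir451a on the minus strand. No other annotated gene overlaps these 3, and the nearest protein-coding gene is Eral1 on the minus strand, whose 3′ end lies 135 bases past the end of Mir451a. Mir486 (ENSMUSG00000070084.3) lies on the plus strand of chromosome 8 at 23142555 to 23142682, in an intron of Ank1 on its own strand and of the antisense transcript Gm15816. Mir3107 (ENSMUSG00000106471.1), for which RefSeq gives the synonym mir-486b, lies inside it on the minus strand at 23142573 to 23142662.

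Animal 1 had 4415759 counts at miRNA genes and animal 2 had 2279562. The libraries also differed in the share of reads that did not map, 23.4% in animal 1 and 47.1% in animal 2. A gene with 0 counts may still have had up to 3, which is 0.679 CPM for animal 1 and 1.32 CPM for animal 2. All intervals and this floor describe counting error alone, since reads copied by PCR without molecular identifiers are not independent. As a check of the tissue, the neuron list (Mir132, Mir128-1, Mir138-1 and 11 others) summed to 56940 CPM in the first animal and 103805 CPM in the second, with 10 of its 14 genes at 2 CPM or more in both. The rest, Mir9-2, Mir124a-1, Mir124a-2 and Mir124a-3, had 0.906 to 2.49 CPM in animal 1 and 0 to 1.75 CPM in animal 2. These genes have near-identical copies, so low counts do not show that their miRNAs were scarce. Mir128-1 and Mir138-1 also have a copy each in the list, so the neuron sums and ratios from them are uncertain as levels. The neuron counts were 124 times those of Mir144, Mir451a and Mir486 together in animal 1 and 1138 times in animal 2. Mir132 alone made up 24389 CPM of the sum in animal 1 and 79576 CPM in animal 2, and the direction of the sum rests on it. Without it the sums were 32552 CPM in animal 1 and 24230 CPM in animal 2, which is 70.9 and 266 times the erythroid counts.

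Erythroid miRNAs were a small part of both libraries, and the part was larger in animal 1. The 5 genes together had 2046 counts in animal 1, or 0.0463% of counts, with an interval of 0.0443 to 0.0484%. In animal 2 they had 219 counts, or 0.00961% (0.00838 to 0.0110%). The share in animal 1 was 4.82 times that in animal 2 (interval 4.19 to 5.57), and the mean was 0.0280% ± 0.0260 (SD, n = 2). In bulk tissue, fewer cells of a type and less RNA per cell cannot be told apart.

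Mir451a had 1698 counts in animal 1, which is 385 CPM (exact Poisson 95% interval 366 to 403), and 100 counts in animal 2, which is 43.9 CPM (35.7 to 53.4). The intervals lie far apart, and the mean of 214 CPM had an SD of 241 (n = 2), larger than the mean itself. By count it ranked 136th of 2202 genes in animal 1 and 231st in animal 2. The level in animal 1 was 8.77 times that in animal 2 (interval 7.16 to 10.8), a log2 ratio of 3.13 (2.84 to 3.44).

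Mir144, the partner of Mir451a on the same transcript, had 180 counts (40.8 CPM, interval 35.0 to 47.2) in animal 1 and 21 counts (9.21 CPM, 5.70 to 14.1) in animal 2. It too was higher in animal 1, by 4.42 times (2.81 to 7.32), or 2.15 on the log2 scale (1.49 to 2.87). Its mean was 25.0 ± 22.3 CPM (SD, n = 2).

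Mir486 did not follow them. It had 148 counts (33.5 CPM, interval 28.3 to 39.4) in animal 1 and 87 counts (38.2 CPM, 30.6 to 47.1) in animal 2, with a mean of 35.8 ± 3.29 CPM (SD, n = 2). The intervals overlap, and the log2 ratio of -0.19 had an interval from -0.58 to 0.21. A difference as large as that of Mir144 or Mir451a lies outside that interval. The interval describes counting error alone. Mir486 shares a stretch of 22 bases with Mir3107, so its counts are uncertain as levels.

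Mir3107, on the other strand of Mir486, had 20 counts (4.53 CPM, 2.77 to 7.0) in animal 1 and 11 counts (4.83 CPM, 2.41 to 8.63) in animal 2. Its log2 ratio was -0.09, with a wide interval from -1.22 to 1.12 that leaves out the ratios of Mir144 and Mir451a. Mir451b had 0 counts in both animals, against the 1698 and 100 counts of Mir451a.

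**Figure D1:**
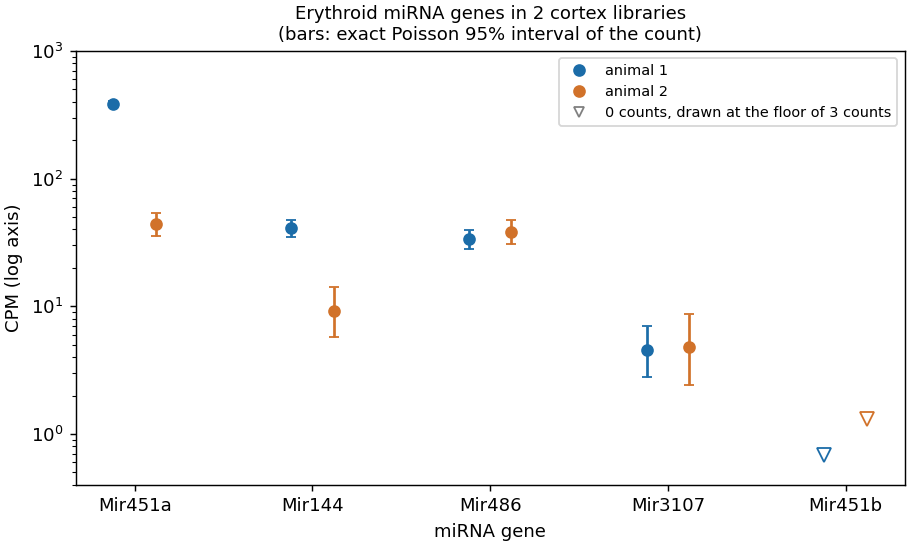
Level of each of the 5 genes (x axis) in CPM on a log axis (y axis) in animal 1 and animal 2, with the exact Poisson 95% interval of each count as bars and Mir451b, at 0 counts, drawn at the floor of 3 counts. Mir451a and Mir144 are higher in animal 1 (385 against 43.9 CPM and 40.8 against 9.21 CPM), while the intervals of Mir486 and Mir3107 overlap.

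The order of levels thus differed between the animals. In animal 1 Mir451a stood above the rest, the intervals of Mir144 and Mir486 overlapped, and Mir3107 lay below both. In animal 2 the intervals of Mir451a and Mir486 overlapped, and so did those of Mir144 and Mir3107. Mir451b was lowest in both.

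Genes next to the members in mean level varied less between the animals than Mir451a and Mir144 did. Beside Mir451a stood Mir329 at 238 ± 62.1 CPM and Mirlet7a-2 at 213 ± 9.38 CPM (SD, n = 2). Beside Mir144 stood Mir6982 at 25.3 ± 4.83 CPM and Mir200c at 22.6 ± 2.80 CPM. The neighbours of Mir486, Mir25 at 35.9 ± 0.765 CPM and Mir467c at 34.9 ± 7.72 CPM, had an SD below and above its own, and those of Mir3107 were Mir1969 and Mir1231.

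Ratios within a library need no scaling between libraries, but they restate the same counts and are no separate evidence. Those over Mir486 also carry the uncertainty of its counts. Animal 1 had 11.5 counts of Mir451a for each count of Mir486 (interval 9.69 to 13.7), and animal 2 had 1.15 (0.854 to 1.55). For Mir144 over Mir486 the ratios were 1.22 (0.973 to 1.52) and 0.241 (0.142 to 0.392). Between the animals these ratios differed by 9.96 times (conditional exact interval 7.04 to 14.1) and 5.02 times (2.92 to 8.94).

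The neighbours Mir451a and Mir144 were not in one fixed proportion. Animal 1 had 9.43 counts of Mir451a for each count of Mir144 (8.09 to 11.1) and animal 2 had 4.76 (2.95 to 8.03), a difference of 1.98 times (1.15 to 3.29). Of the 5 genes' counts, Mir451a made up 83.0% in animal 1 (81.3 to 84.6%) and 45.7% in animal 2 (38.9 to 52.5%). Mir144 made up nearly equal shares, 8.80% (7.61 to 10.1%) and 9.59% (6.03 to 14.3%). Mir486 held 7.23% in animal 1 (6.15 to 8.44%) and 39.7% in animal 2 (33.2 to 46.5%). Without Mir451a the other genes held 0.00788% of all counts in animal 1 and 0.00522% in animal 2, 1.51 times as much in animal 1 (1.22 to 1.88).

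**Figure D2:**
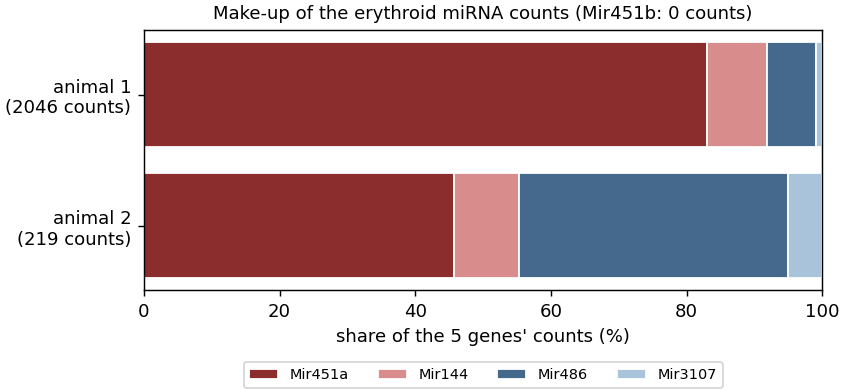
Share of the 5 genes' summed counts (x axis, percent) held by each gene in animal 1 (2046 counts) and animal 2 (219 counts), as stacked bars. Mir451a takes 83.0% in animal 1 and 45.7% in animal 2, and Mir486 takes 7.23% and 39.7%.

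A difference between the libraries beyond counting error was common among miRNA genes. Of the 415 genes at 2 CPM or more in both animals, 112 (27.0%) were called higher in animal 1, 123 (29.6%) higher in animal 2, and 235 (56.6%) in either direction. A gene was called where the 95% interval around the part of its counts that animal 1 held did not include the part of all counts that animal 1 held. Mir144 and Mir451a were called higher in animal 1, none of the 5 genes was called higher in animal 2, and Mir486 and Mir3107 were not called. The call alone is therefore no mark of these genes. The sizes were at the edge of the range: the log2 ratios of all 415 genes had a median of 0.00, with 90% between -1.16 and 1.03. Toward animal 1, 1 gene had a larger ratio than Mir451a and 3 a larger one than Mir144. Differences of this size also occurred toward animal 2. There Mir31 (-3.78) exceeded Mir451a in size, and Mir34c (-2.93) was among the genes that exceeded Mir144.

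The genes nearest to Mir451a in this ratio were taken from the 322 genes that averaged at least 10 CPM and had counts in both animals. Over 2 libraries likeness can only mean a similar ratio. The nearest was Mir200b, an epithelial miRNA, at 72.2 CPM in animal 1 against 8.33 in animal 2 (log2 ratio 3.12, interval 2.45 to 3.87). Mir144 was second. Mir301 followed at 261 and 12.7 CPM (4.36, 3.83 to 4.95), then the neuronal Mir153 at 427 and 136 CPM (1.65, 1.47 to 1.82) and Mir148a at 49.8 and 17.1 CPM (1.54, 1.05 to 2.07). Mir301 lies on chromosome 11 as well, at 87113004 to 87113089, and Mir200b on chromosome 4 at 156055681 to 156055750.

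**Figure D3:**
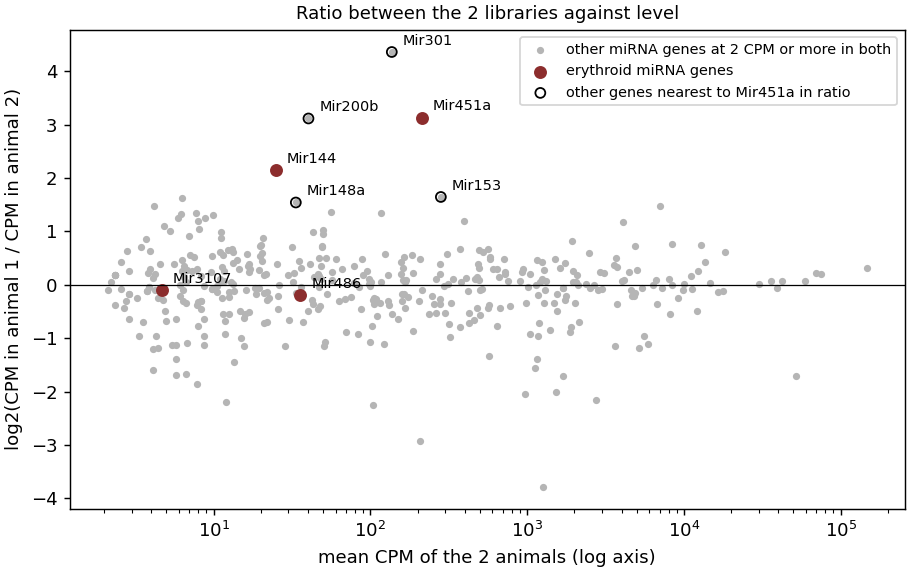
Log2 ratio of CPM in animal 1 over animal 2 (y axis) against the mean CPM on a log axis (x axis) for the 415 genes at 2 CPM or more in both, with the 4 erythroid genes that reached this level and the genes nearest to Mir451a in ratio named. Mir451a (3.13) and Mir144 (2.15) lie above nearly all genes of their level, while Mir486 (-0.19) and Mir3107 (-0.09) lie in the middle.

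Strand assignment decided whether most of these genes were seen at all. In the column counted without regard to strand, Mir451a, Mir451b, Mir486 and Mir3107 each had 0 counts in both animals. Mir144, which has no opposite-strand partner, kept its 180 and 21 counts. The reads of the other 4 numbered 1866 in animal 1 and 198 in animal 2, which is 0.666% and 0.132% of the size of the unstranded column's ambiguous entry. On the opposite strand Mir451b had 1698 and 100 counts, the very numbers of Mir451a, and Mir144 and Mir451a had 0.

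The 2 opposite-strand pairs were unlike. At the Mir451a and Mir451b locus, 0 of 1798 counts over both animals fell on the minus strand (Clopper-Pearson upper bound 0.205%). At the Mir486 and Mir3107 locus, 31 of 266 counts did, or 11.7% (8.06 to 16.1%). The share was alike in the animals, 11.9% of 168 counts in animal 1 (7.43 to 17.8%) and 11.2% of 98 counts in animal 2 (5.74 to 19.2%).

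Among all 2202 genes, 32 pairs overlapped on opposite strands, and 24 of these had 100 counts or more over both animals. In 16 of the 24, Mir451a with Mir451b among them, the lower gene had 0 counts. In 2 the lower gene held more than 1% of the pair's counts: Mir486 with Mir3107, and Mir24-1 with Mir3074-1 at 14.2% (10.9 to 18.2%). Mir24-1 has a copy at another locus, Mir24-2, so its counts and the share of this pair are uncertain. The highest share among the other 22 was 0.452%, for Mir142 with Mir142b. The pairs with the most counts, led by Mirlet7e with Gm25927, Mir191 with Gm24083, Mir126a with Mir126b, Mir378a with Gm25301 and Mir30e with Mir30f, had at most 2 counts on the lower strand.

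**Figure D4:**
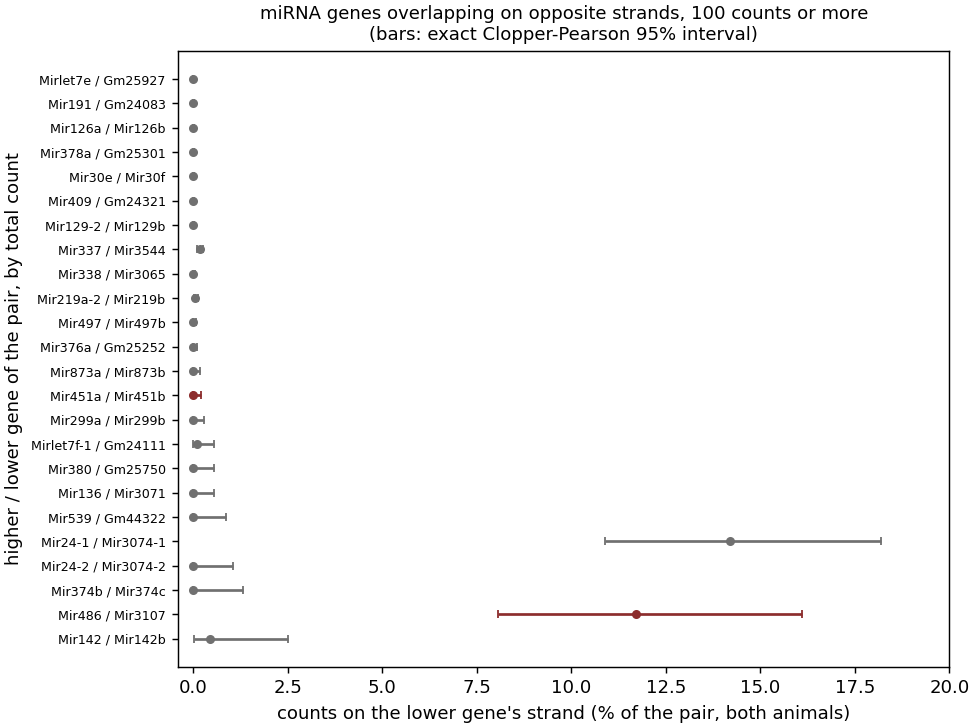
Share of a pair's counts that fell on the strand of its lower gene (x axis, percent, both animals summed) for the 24 opposite-strand pairs with 100 counts or more (y axis, ordered by total count), with exact Clopper-Pearson 95% intervals as bars. Mir486 with Mir3107 at 11.7% and Mir24-1 with Mir3074-1 at 14.2% stand apart from the rest, and Mir451a with Mir451b is at 0.

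The pairs also differed in sequence. Compared in the same 5′ to 3′ sense, the Mir486 and Mir3107 transcripts of GENCODE M21 share a stretch of 22 bases, about the length of a mature miRNA, although they are read from opposite strands. The median over the 32 pairs was 10 bases. Mir486 with Mir3107 was the only one of the 24 pairs with 100 counts or more to share 22 bases, while Mir24-1 with Mir3074-1 shared 10 and Mir451a with Mir451b 16. A read inside such a stretch matches both strands of the locus, and reads that map to several places have their own entry in the tables, so the counts of Mir486 and Mir3107 are uncertain as levels. Mir144 shared at most 13 bases with any other hairpin. Of the 415 genes at 2 CPM or more, 69 (16.6%) shared 22 bases with another hairpin. How far shared sequence lowered the counts of Mir486 and Mir3107 was not tested.

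Other miRNAs carried in blood did not share the ratio of Mir451a and Mir144 where they reached 2 CPM in both animals. In the leukocyte and platelet list, 5 of 6 genes reached 2 CPM in both animals, 0 were called higher in animal 1 and 3 were called higher in animal 2, with a median log2 ratio of -0.34. Mir150, a lymphocyte miRNA, had 1319 CPM against 1668 CPM in animal 2, and Mir146, induced by inflammatory signals, had 407 and 601 CPM. Mir155, a miRNA of activated lymphocytes and macrophages, had 34.9 and 29.8 CPM and was not called. Mir223, a myeloid and platelet miRNA, had few counts, 12 in animal 1 (2.72 CPM) and 20 in animal 2 (8.77 CPM). Its log2 ratio, -1.69 (interval -2.86 to -0.59), was the lowest of the list, and it was among the 3 genes called.

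Mir142, expressed across nucleated blood cells and in microglia, had 31.7 and 35.1 CPM, close to Mir486 in both animals. For each count of Mir142 there were 12.1 counts of Mir451a in animal 1 (10.2 to 14.5) and 1.25 in animal 2 (0.922 to 1.70), a difference of 9.68 times (6.78 to 13.8). Several of these genes are also expressed by brain cells, so the list does not measure blood alone.

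The list of miRNAs that are abundant in red cells but made in most other cells gave a similar result. Of its 14 genes, 13 reached 2 CPM in both animals; 3 were called higher in animal 1, 6 higher in animal 2 and 4 neither, with a median log2 ratio of -0.09. Mir363 had 13 counts in animal 1 and 0 in animal 2. Mir191 led at 9528 and 10132 CPM, then Mir22 at 2266 and 5041 CPM and Mir185 at 1270 and 1350 CPM. Mir16-1 had 314 and 240 CPM and Mir92-1 had 686 and 476 CPM, both called higher in animal 1. Each has a near-identical copy, Mir16-2 at 62.3 and 75.0 CPM and Mir92-2 at 19.7 and 24.1 CPM, neither of them called, so counts of these 4 genes are uncertain as levels.

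Among miRNAs that fall as red cells mature, Mir221 and Mir222, which repress the growth factor receptor Kit, were called higher in animal 2. Mir221 had 3716 and 8045 CPM, and Mir222 had 1002 and 4464 CPM. All 5 listed genes reached 2 CPM in both animals, with 1 called higher in animal 1 and a median log2 ratio of 0.20. Over all 415 genes the shares called were 27.0% for animal 1 and 29.6% for animal 2. Mir24-2, the one called higher in animal 1, had 60.7 and 37.3 CPM. Its copy Mir24-1 had 49.8 and 43.4 CPM and was not called, so counts of both are uncertain as levels. These genes are expressed in many cell types.

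The vascular wall list had 3 of 3 genes called higher in animal 2, with a median log2 ratio of -0.52. Of all 415 genes, 29.6% were called so. With many counts a small difference is called: Mir143, at 20270 and 11667 counts, had a log2 ratio of -0.16. Mir126a, of endothelial cells but also found in platelets and blood progenitors, had 6662 CPM in animal 1 against 9727 CPM. For each count of Mir451a there were 17.3 counts of Mir126a in animal 1 (16.5 to 18.2) and 222 in animal 2 (182 to 273). The smooth muscle miRNAs Mir143 and Mir145a had 4590 and 5118 CPM and 216 and 310 CPM.

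Mir486 is also a muscle miRNA, so muscle and liver genes were read beside it. Of the 10 listed, 5 had 0 counts in both animals: Mir1a-1, Mir1a-2, Mir133a-1, Mir133a-2 and the liver and gut gene Mir194-1. Near-identical copies exist for these muscle genes, so a count of 0 does not show that their miRNAs were absent. The same limit holds for Mir194-1. Its copy Mir194-2, which is not on the list, was seen in animals 1 and 2 at 9.51 and 10.1 CPM. Of the 4 listed genes that reached 2 CPM in both, 2 were called higher in animal 1 and 0 higher in animal 2, with a median log2 ratio of 0.64. Mir122, the main liver miRNA, had 60.9 CPM in animal 1 against 36.8 CPM. Mir206, of skeletal muscle, had 23.6 and 16.2 CPM, and Mir192 had 8.38 and 5.70 CPM. The neuron list, with 6 genes called higher in animal 1 and 3 in animal 2, had a median of 0.37. For both lists the background is that of all 415 genes, 27.0% called higher in animal 1 and 29.6% in animal 2.

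**Figure D5:**
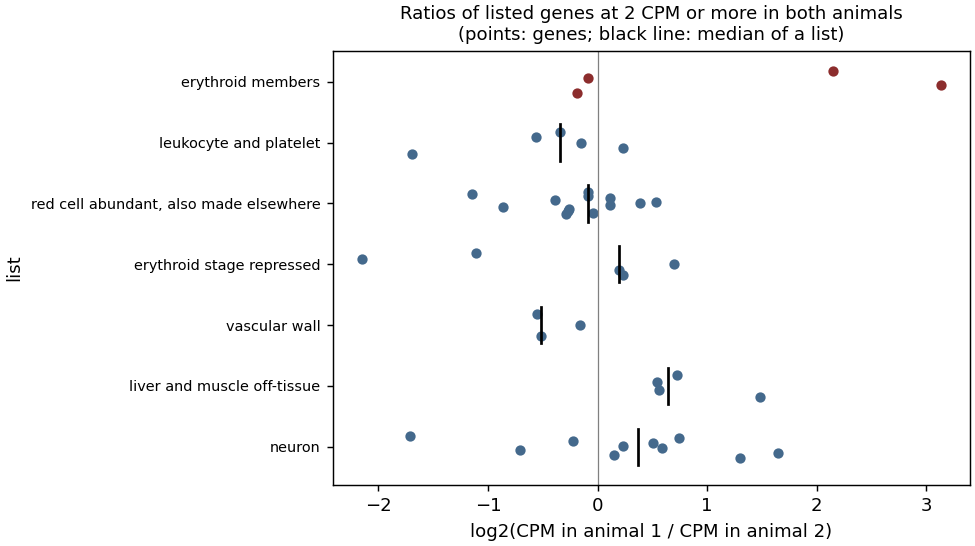
Log2 ratio of CPM in animal 1 over animal 2 (x axis) for genes at 2 CPM or more in both animals, by list (y axis), 1 point per gene, with a black line at the median of each list other than the erythroid genes. Mir451a and Mir144 (3.13 and 2.15) lie to the right of all genes of the 6 other lists, while Mir486 and Mir3107 lie among them.

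With 1 library from each animal, effects of the animal, the dissection and the library preparation cannot be told apart. The larger erythroid share stood in the deeper library, which also had the lower unmapped share. Thinned at random to the depth of animal 2, the library of animal 1 gave log2 ratios of 3.16 for Mir451a, 1.91 for Mir144 and -0.14 for Mir486. Such thinning keeps each gene's expected share, so it shows added counting noise only and cannot show an effect of depth. Whether the unmapped share or the amount of blood in the tissue had a part in the difference was not tested.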

How the data were processed

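MicroRNA-seq libraries of 2 animals, 1 group, were analysed. For each library the authors deposited a table of raw read counts by miRNA gene, on mm10 with GENCODE M21, per the metadata text deposited with each table. Aligner, adapter trimming and read filters: not given in the sources used here. An unstranded and 2 strand-assigned count columns stand in each table without names. The strand column with the larger sum was used, and 4 summary entries were left out of totals. They held 67.4% of reads in animal 1 and 77.5% in animal 2.

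CPM was a count over the sum of gene counts, times 1000000. Poisson, Clopper-Pearson and conditional exact 95% intervals came from scipy 1.17.1. A single group allows no differential test, so there are no p-values; the interval rule was tested on simulated data. Animals are the replicates, and the spread between them joins animal and preparation. Hairpins were folded with RNAfold (ViennaRNA 2.7.2), and shared stretches were searched among GENCODE transcripts, since no genome sequence was used here.

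The members and lists were chosen with earlier results of these data known. The list of red cell miRNAs made in most cells held Mir15b, Mir16-1, Mir16-2, Mir22, Mir25, Mir92-1, Mir92-2, Mir93, Mir106b, Mir185, Mir191, Mir210, Mir363 and Mir425, and the list that falls as red cells mature held Mir221, Mir222, Mir24-1, Mir24-2 and Mir155. The named genes were the members, the 3 highest of each list and those at 0 in both animals, the 5 nearest to Mir451a in ratio, the genes just above and below each member in mean CPM and the 5 opposite-strand pairs with the most counts. Mir16-1, Mir16-2, Mir24-1, Mir92-1, Mir92-2, Mir101a, Mir101b, Mir155, Mir223, Mir363 and the pairs with Mir3074-1 and Mir142b were named after their values were seen. So were Mir9-2, Mir31, Mir34c, Mir124a-1, Mir124a-2, Mir124a-3 and Mir194-2. Alternatives were edgeR 4.0.16 TMM and DESeq2 1.42.0 size factors, other totals, the unstranded column, pseudocounts of 1 and 5, other filters, thinning and leaving out either animal.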

Additional observations from a re-analysis of the deposited data

Results flagged for a closer look

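Reads that mapped to several places were not part of any comparison and were nearly equal parts of the mapped reads, 48.9% for animal 1 and 48.2% for animal 2. The tables do not say from which genes these reads came, so the number that belongs to Mir486 or Mir3107 is not known.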

How the results depend on the processing

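The log2 ratios of Mir451a, Mir144, Mir486 and Mir3107 kept their sign and stayed inside their counting intervals under all alternatives run. They ranged from 2.99 to 3.18, from 1.69 to 2.20, from -0.18 to -0.13 and from -0.46 to -0.04, with the lowest values of the first pair at a pseudocount of 5. Requiring also more than a 2-fold difference lowered the genes called higher in animal 1 from 112 to 21 and those higher in animal 2 from 123 to 31, by construction. The mean erythroid share of 0.0280% was 0.00961% without animal 1 and 0.0463% without animal 2, so it rests on animal 1. It was 0.0119% of mapped reads, 0.00655% without Mir451a and 0.00267% in the unstranded column, where Mir144 alone has counts. No ratio of Mir451a, Mir486 or Mir3107 could be had in that column. No paired analysis was possible because there is a single group.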
